A study of Mus musculus with 4 samples.

Results

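Dentate granule neuron nuclei were studied here, 206 of the 615 NeuN+ nuclei of the mouse hippocampus that passed the filters, in a series of 1130 such nuclei. A well was kept when it had at least 1000 genes read and at least 50000 reads, and a gene counted as on in a nucleus at 10 or more reads and 50 or more reads per 1000000 of the well. A member had at least 3 of 9 granule neuron genes on (Prox1, C1ql2, C1ql3, Dsp, Dock10, Glis3, Stxbp6, Trpc6 and Tdo2) and fewer than 2 of 3 genes of GABA neurons (Gad1, Gad2 and Slc32a1). Of the members, 79 came from Fasn-R1812W and 127 from WT animals.

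Granule neurons are the principal cells of the dentate gyrus. They receive the input of the entorhinal cortex on their dendrites, release glutamate and zinc from mossy fibre terminals onto CA3 pyramidal neurons and mossy cells, and fire sparsely under strong GABA inhibition. New ones are made through adult life by stem cells of the subgranular zone, and the transcription factor Prox1 is needed for their identity.

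The study compared mice with the R1812W form of Fasn, the fatty acid synthase that makes palmitate from acetyl and malonyl units, with WT mice, both aged 8.5 months. Hippocampal nuclei were stained for the neuronal protein NeuN, sorted singly into wells and sequenced by Smart-seq2, which amplifies full-length transcripts and has no molecular identifiers. A second pair of libraries held nuclei sorted for EdU, a thymidine analogue injected before isolation, and entered no test here; its wells that met the rule are described apart. Each genotype had 1 NeuN+ library, the labels do not say how many animals went into it or how the Fasn allele was made, and so no difference between genotypes could be tested.

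The data were counts of reads per gene. The kept NeuN+ nuclei held 70306535 reads in the Fasn-R1812W and 69661762 in the WT library, of which granule nuclei held 20880156 and 30249262. A Fasn-R1812W granule nucleus had 50877 to 1075070 reads (median 195195) and a median of 3906 genes, and a WT one 51012 to 523773 reads (median 245181) and a median of 4173 genes. The median granule nucleus was thus shallower in Fasn-R1812W, and since a gene is on more often in a deep nucleus, pooled levels are given beside counts of nuclei. All 384 well names occur in both libraries, and 25 of them belonged to a granule nucleus in each. Levels are pooled CPM: reads were summed over the nuclei of a class in a library and scaled to 1000000 reads of nuclear-encoded genes. A pooled level cannot tell fewer nuclei with a transcript from less of it per nucleus, so the nuclei with a read stand beside the levels the results turn on. Intervals in brackets are exact 95% intervals; they reflect the number of reads or nuclei alone, and PCR copies without molecular identifiers are not separate molecules.

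The promoters of the rule genes are shown because all 9 genes were selected together for their high level in these nuclei, and the bHLH factor Neurod1, which drives granule neuron differentiation, was read there. RefSeq promoter windows of GRCm38.p6, from 250 bases before to 50 after a gene start, were found for all 9 genes (11 windows). They were searched on both strands for CANNTG, the general E-box bound by bHLH factors, and for CAGATG, a form of it favoured by the NeuroD family. The 3 windows with a CAGATG match belong to Prox1 and to both starts of Dock10, all on the minus strand of chromosome 1, at chr1:190170778-190171077, chr1:80758504-80758803 and chr1:80665303-80665602 in that order. Capitals mark the match, as CAGATG or as CATCTG where it lies on the opposite strand.
Prox1: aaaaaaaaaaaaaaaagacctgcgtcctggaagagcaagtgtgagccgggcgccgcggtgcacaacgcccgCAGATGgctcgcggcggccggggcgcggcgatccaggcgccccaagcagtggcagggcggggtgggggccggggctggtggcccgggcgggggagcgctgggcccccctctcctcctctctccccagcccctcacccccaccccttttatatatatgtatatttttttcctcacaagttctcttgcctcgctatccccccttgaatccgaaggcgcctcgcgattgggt
Dock10, first start: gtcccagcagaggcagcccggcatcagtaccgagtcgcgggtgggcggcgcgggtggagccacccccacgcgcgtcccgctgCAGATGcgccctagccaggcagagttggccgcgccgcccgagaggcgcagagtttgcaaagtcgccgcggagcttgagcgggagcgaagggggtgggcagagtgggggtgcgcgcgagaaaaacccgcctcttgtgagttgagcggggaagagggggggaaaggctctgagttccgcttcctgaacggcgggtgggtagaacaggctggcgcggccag
Dock10, second start: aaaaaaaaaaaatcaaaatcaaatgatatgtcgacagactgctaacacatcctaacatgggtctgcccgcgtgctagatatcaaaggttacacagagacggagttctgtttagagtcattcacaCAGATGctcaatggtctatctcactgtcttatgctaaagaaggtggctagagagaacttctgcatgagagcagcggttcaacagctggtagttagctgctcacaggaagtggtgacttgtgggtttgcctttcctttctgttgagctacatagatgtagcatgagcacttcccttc
CAGATG stood in 3 of 11 windows of the rule genes (27.3%) and in 5635 of 32851 windows of the whole table (17.2%). CANNTG, of which CAGATG is a case, stood in 8 of 11 (72.7%) and in 23756 of 32851 (72.3%). A match describes these letters and is not a bound site.

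Nuclei were chosen by the 9 rule genes, so their levels are a description and were not tested. Prox1, the homeobox factor of granule identity (chromosome 1, 190118035 to 190170714 on the minus strand of GRCm38), was at 401 CPM (393 to 410) in Fasn-R1812W and 529 CPM (521 to 538) in WT granule nuclei. It ranged over nuclei from 0 to 1870 CPM (median 357) in Fasn-R1812W and from 0 to 2112 CPM (median 453) in WT, with no read in 9 and 1 nuclei. Kept nuclei outside the class held 9.20 and 44.6 CPM of it. Prox1 was on in 63 of 79 Fasn-R1812W and 116 of 127 WT granule nuclei.

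The secreted synaptic organisers C1ql2 and C1ql3, which are mossy fibre proteins, were at 163 and 337 CPM in Fasn-R1812W and at 254 and 351 CPM in WT granule nuclei. Dock10, a guanine nucleotide exchange factor, was at 502 CPM in Fasn-R1812W and 622 CPM in WT. Desmoplakin (Dsp), a desmosome protein, was at 72.5 CPM in Fasn-R1812W and 160 CPM in WT, and was on in 16 and 50 nuclei. Dock10, C1ql3 and Prox1 were thus on in most granule nuclei of both libraries, and Dsp in a minority. Trpc6, a cation channel, was at 168 and 201 CPM in Fasn-R1812W and WT granule nuclei, and Stxbp6, a SNARE-binding protein, at 137 and 260 CPM. Glis3, a zinc finger factor, was at 121 and 94.5 CPM, and Tdo2, a tryptophan dioxygenase, at 92.6 and 49.1 CPM. C1ql3 overlaps predicted genes on the opposite strand, and Dock10 overlaps predicted genes on its own strand. The strand setting of the counting is not given, so some reads of both may belong to those genes.

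**Figure D1:**
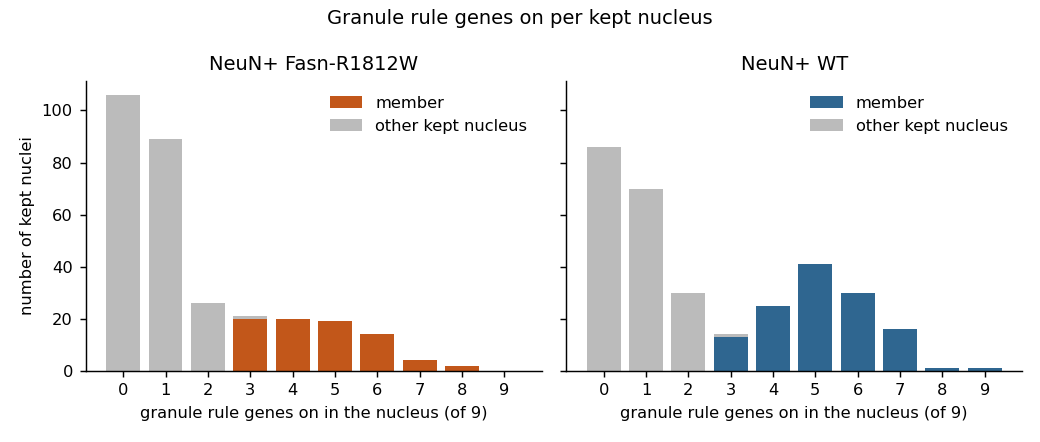
Kept NeuN+ nuclei (y axis, number) by how many of the 9 granule rule genes were on (x axis), in the Fasn-R1812W library (left) and the WT library (right); coloured bars are granule nuclei and grey bars all other kept nuclei. The most frequent numbers were 0 and 1 in both libraries, and granule nuclei with 5 or more on were 39 of 79 in Fasn-R1812W and 89 of 127 in WT.

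The members graded into the other nuclei. A granule nucleus had a median of 4 rule genes on in Fasn-R1812W and 5 in WT. Just inside the rule, 20 Fasn-R1812W and 13 WT nuclei had exactly 3 on, with a summed level of the 9 genes of 1314 and 1902 CPM. Just outside it, 26 and 30 nuclei had 2 on, with 662 and 771 CPM. Only 1 nucleus in each library was kept out by its GABA neuron genes, while 24 of 79 and 48 of 127 members had 1 of these genes on. That gene was mostly Gad1, the GABA-making enzyme that granule neurons can also transcribe, at 113 CPM in Fasn-R1812W and 184 CPM in WT granule nuclei, whereas the vesicular GABA transporter Slc32a1 was at 0.0480 and 0.133 CPM.

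Granule nuclei made up 79 of 301 kept NeuN+ nuclei in Fasn-R1812W, or 26.2% (21.4 to 31.6), and 127 of 314 in WT, or 40.4% (35.0 to 46.1). The difference was -14.2 percentage points, and it lay between -17.3 and -13.9 points under other definitions of a member or a kept well. With every nucleus thinned to 50000 reads, 60 Fasn-R1812W and 117 WT nuclei met the rule, each of which was a member before thinning. Nuclei of 1 library are not replicates of a genotype, and what the dissection, the sort or the animal adds to this difference was not tested.

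For comparison the other kept NeuN+ nuclei were split by rules of the same kind into CA1-gene nuclei (57 Fasn-R1812W and 48 WT, with at least 3 of 8 genes of CA1 pyramidal neurons on), GABA-gene nuclei (38 and 37, with at least 2 of the 3 GABA neuron genes on) and the remaining nuclei (127 and 102). Reads were summed per class and library to 8 sums, and edgeR's quasi-likelihood test with Benjamini-Hochberg adjustment compared classes within libraries, so that the replicate is the library (n = 2). The 20 rule genes of the 3 classes were left out. The other genes come from the same nuclei that the rules sorted, so a call says that a gene differed along with the rule genes in both libraries. Against CA1-gene nuclei, 171 genes were higher and 247 lower in granule nuclei at an adjusted p under 0.05, 2.56% of the 16332 tested (1.05% higher, 1.51% lower). Against GABA-gene nuclei 584 were higher and 491 lower (6.58%, split into 3.58% and 3.01%), and against the remaining nuclei 89 were higher and 265 lower (2.17%, split into 0.545% and 1.62%). The median log2 fold change over all genes tested was 0.0219, 0.0537 and -0.0479 in these 3 comparisons. Calls with the same sign against both CA1-gene and GABA-gene nuclei were made for 223 genes (1.37%), of which 76 were higher (0.465%) and 147 lower (0.9%).

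Other genes known from granule neurons went with the rule genes. Of 24 such genes outside the rule, 14 were higher and 1 lower than in CA1-gene nuclei (median log2 fold change 3.32), 20 higher and 0 lower than in GABA-gene nuclei (3.06; also 0 lower at an unadjusted p under 0.05 and in DESeq2), and 13 higher and 1 lower than in the remaining nuclei (2.34); the list was drawn up from knowledge of this cell type with results of these data known. Rfx3, a transcription factor of ciliary genes, had 738 and 856 CPM in granule nuclei of the Fasn-R1812W and WT libraries, 71.3 and 84.4 CPM in CA1-gene nuclei, and 27.7 and 49.5 CPM in GABA-gene nuclei. It was higher by 3.34 on the log2 scale than in CA1-gene nuclei (adjusted p = 2.56e-05) and by 4.45 than in GABA-gene nuclei (adjusted p = 1.13e-06, both by edgeR). Both granule sums lay above all 6 others.

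Calbindin (Calb1), the calcium buffer of mature granule neurons, had 506 and 360 CPM in granule nuclei against 118 and 108 CPM in CA1-gene and 91.6 and 220 CPM in GABA-gene nuclei. Its log2 fold changes were 1.93 and 1.57 (edgeR adjusted p = 0.0105 and 0.0216). Il1rap, the co-receptor of the interleukin-1 receptor, had 450 and 883 CPM in granule nuclei, at most 171 CPM in the other classes of the Fasn-R1812W library and at most 138 CPM in those of the WT library. Lrrtm4, a postsynaptic organiser of dentate excitatory synapses, had 193 and 367 CPM against 16.1 and 12.9 CPM in CA1-gene nuclei (log2 fold change 4.15), though predicted genes overlap it.

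Some genes set granule nuclei apart from one class only. Synaptoporin (Synpr), a vesicle protein of mossy fibres, was higher than in CA1-gene nuclei by 5.62 (edgeR adjusted p = 2.56e-05) but not called against GABA-gene nuclei, where WT nuclei held 398 CPM. Zbtb20, a repressor needed for hippocampal projection neurons, was at 3004 and 3145 CPM in granule, 2708 and 2060 CPM in CA1-gene and 130 and 120 CPM in GABA-gene nuclei. It rose by 4.67 against GABA-gene nuclei (edgeR adjusted p = 6.85e-09) and did not pass against CA1-gene nuclei. Bdnf, the trophic factor that mossy fibres store, was also higher than in GABA-gene nuclei alone (4.19), with 196 and 179 CPM in granule nuclei. Rasal1, a Ras GTPase-activating protein, was the 1 listed gene lower than in CA1-gene nuclei, at 54.0 and 23.8 CPM against 253 and 239 CPM.

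The 12 genes that stood furthest above both CA1-gene and GABA-gene nuclei included extracellular and signalling proteins. Against the remaining nuclei, 2 of the 12 passed, Capn3 and Phxr4 (edgeR adjusted p = 0.0313 and 0.0467), and the other 10 did not. In promoter windows found for 9 of the 12 genes, CAGATG stood in 2 of 13 (15.4%) and CANNTG in 11 of 13 (84.6%). Fold changes are left out where a class of a library held 3 or fewer reads of the gene. Smoc2, a secreted calcium-binding matrix protein (chromosome 17, 14279506 to 14404790), had 217 and 112 CPM in granule nuclei of the Fasn-R1812W and WT libraries. It had 0.0740 and 0.108 CPM in CA1-gene and 2.48 and 0.367 CPM in GABA-gene nuclei (edgeR adjusted p = 2.86e-05 and 7.04e-05). In the remaining nuclei it had 55.4 and 17.7 CPM and did not pass (edgeR adjusted p = 0.0597). Its level varied among granule nuclei, with no read in 44 of 79 Fasn-R1812W and 66 of 127 WT nuclei and a highest value of 1947 and 879 CPM. So Smoc2 was read in about as many members as not.

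Nephronectin (Npnt), an integrin ligand of the matrix, had 157 and 94.7 CPM in granule nuclei (log2 fold change 4.68 against GABA-gene nuclei), and osteoglycin (Ogn) 28.2 and 36.5 CPM against at most 0.324 CPM in CA1-gene and GABA-gene nuclei. Il1r1, the interleukin-1 receptor itself, had 53.8 and 78.0 CPM in granule nuclei against at most 0.489 CPM in CA1-gene and GABA-gene nuclei (edgeR adjusted p = 0.0114 for each). Both chains of that receptor, Il1r1 and Il1rap, were therefore higher in granule nuclei than in CA1-gene and GABA-gene nuclei. In the remaining nuclei Il1r1 had 0.388 CPM in Fasn-R1812W and 31.0 CPM in WT, and did not pass.

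The tetraspanin Tspan18 had 64.8 and 64.4 CPM in granule nuclei, at most 0.734 CPM in CA1-gene and GABA-gene nuclei, and 27.6 and 14.0 CPM in the remaining nuclei. Foxo1, a forkhead factor that insulin signalling holds out of the nucleus, had 71.9 and 67.3 CPM against at most 3.85 CPM in CA1-gene and GABA-gene nuclei (log2 fold changes 4.81 and 5.59), and the remaining nuclei held 41.3 and 29.1 CPM. Maml2, a Notch coactivator, had 137 and 78.4 CPM (5.19 against CA1-gene nuclei), and Phxr4, a gene that lies inside it on the same strand, 269 and 222 CPM, so the pair cannot be counted apart with certainty. Capn3, a calpain protease that overlaps Ganc, had 183 and 92.7 CPM, the polo-like kinase family member Plk5 137 and 110 CPM, and the phosphoinositide-binding Plekha2 113 and 87.6 CPM. Emp2, a tetraspan membrane protein, had 27.7 and 25.6 CPM in granule nuclei and no read in any CA1-gene or GABA-gene nucleus, so no fold is given for it (edgeR adjusted p = 0.0494 and 0.0286). Ogn and Foxo1 also overlap other genes.

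The 12 genes furthest below both CA1-gene and GABA-gene nuclei included receptors and secreted proteins. Cnr1, the cannabinoid receptor of presynaptic terminals, had 2.93 and 12.1 CPM in granule nuclei, against 125 and 240 CPM in CA1-gene and 552 and 1082 CPM in GABA-gene nuclei. It fell by 4.79 and by 6.89 on the log2 scale (edgeR adjusted p = 1.56e-05 and 2.05e-07). Kit, a receptor tyrosine kinase, had 3.51 and 0.829 CPM, Nell1, a secreted protein, 0.432 and 0.498 CPM, and Runx1t1, a corepressor, 7.01 and 2.85 CPM. Nell1 had 76.2 and 111 CPM in CA1-gene nuclei and Runx1t1 178 and 340 CPM. Neto2, an auxiliary subunit of kainate receptors, and Igfbp4, a binding protein of insulin-like growth factors, were also among the 12, with Hunk, Pid1, Tmem44, Galntl6, Wls and St8sia5.

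**Figure D2:**
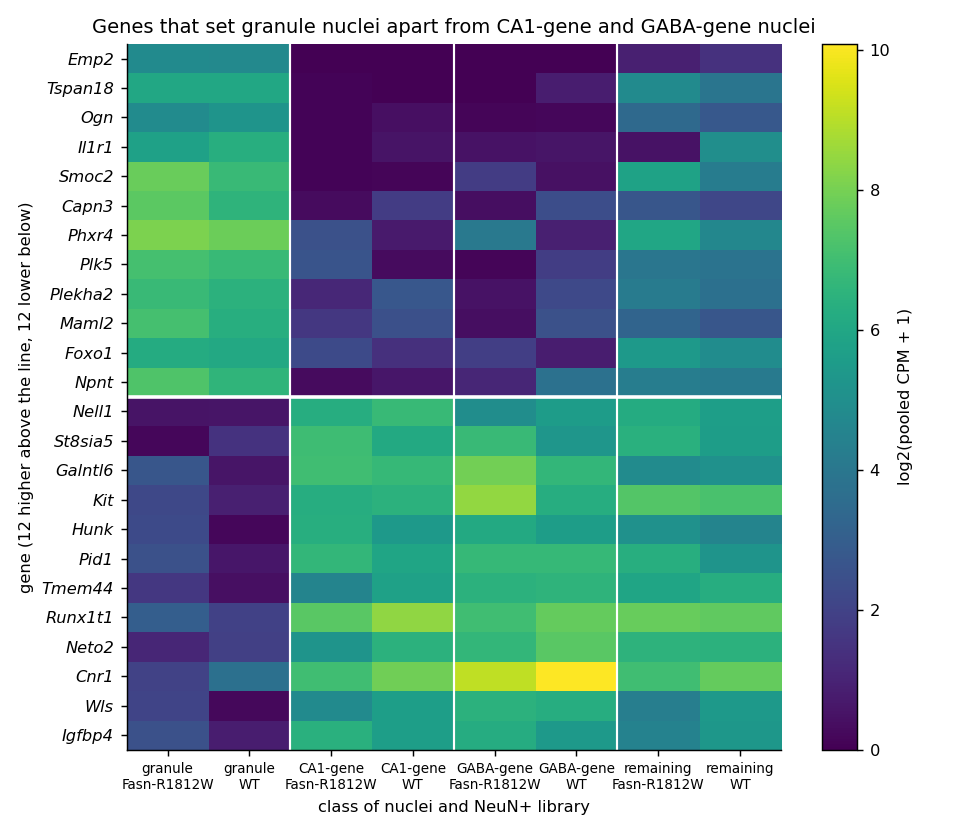
Pooled level, as log2(CPM + 1), of the 12 genes furthest above and the 12 furthest below both CA1-gene and GABA-gene nuclei (rows) in granule, CA1-gene, GABA-gene and remaining nuclei of each library (columns). Bright colours are high levels and dark colours low ones. In the upper rows both granule columns are brighter than the CA1-gene and GABA-gene columns, as for Smoc2 with 217 and 112 CPM. In the lower rows they are darker, as for Nell1 with 0.432 and 0.498 CPM.

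Ion channels gave calls in both directions. Of 34 potassium channel genes, 3 were higher and 5 lower than in CA1-gene nuclei (median log2 fold change 0.10), and 6 higher and 7 lower than in GABA-gene nuclei (0.48). The lower ones included the fast delayed rectifier Kcnc2, with 5.43 and 4.54 CPM in granule nuclei against 105 and 92.2 CPM in CA1-gene and 507 and 469 CPM in GABA-gene nuclei (log2 fold changes -4.32 and -6.58, edgeR adjusted p = 1.56e-05 and 1.88e-07), and the M-current subunit Kcnq5, with 1.10 and 6.50 CPM in granule and 35.3 and 47.7 CPM in CA1-gene nuclei. In the other direction the Shaker channel Kcna1 (187 and 183 CPM) and the fast rectifiers Kcnc1 (134 and 174 CPM) and Kcnc4 (113 and 112 CPM) were the 3 above CA1-gene nuclei, which held 41.8 and 81.9, 37.5 and 53.7, and 12.7 and 31.4 CPM of them. Among 21 sodium and calcium channel genes, 2 were higher and 1 lower than in CA1-gene nuclei and 4 higher and 3 lower than in GABA-gene nuclei. The sodium channel Scn3a was above every other class, with 449 and 462 CPM in granule nuclei against 181 to 266 CPM elsewhere (log2 fold changes 1.15, 1.01 and 1.26), and the calcium channel Cacna1h was above GABA-gene nuclei by 3.22.

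Transmitter receptors divided by class. Of 18 ionotropic glutamate receptor genes 0 passed against CA1-gene nuclei in edgeR (3 higher and 3 lower at an unadjusted p under 0.05, and 2 and 2 in DESeq2), and 3 were higher and 3 lower than in GABA-gene nuclei. Over all genes tested, 2.56% passed against CA1-gene and 6.58% against GABA-gene nuclei. The AMPA receptor subunit Gria2 had 4005 and 4126 CPM in granule, 4469 and 4175 CPM in CA1-gene and 1449 and 2456 CPM in GABA-gene nuclei, and Gria4 60.9 and 42.9 CPM in granule against 787 and 648 CPM in GABA-gene nuclei (log2 fold change -3.75). Of 14 GABA receptor genes 1 was lower than in CA1-gene nuclei, and 3 higher and 2 lower than in GABA-gene nuclei. The gamma 3 subunit Gabrg3 was lower than both, with 11.8 and 14.6 CPM in granule nuclei against 97.1 and 114 CPM in CA1-gene nuclei. Gabra2 and Gabra5, which overlaps another gene, rose against GABA-gene nuclei, by 1.56 and 1.78. Gabrd, the delta subunit of extrasynaptic receptors that mediates tonic inhibition of granule neurons, had 108 and 82.6 CPM in granule and 15.5 and 18.2 CPM in CA1-gene nuclei, but did not pass (log2 fold change 2.45, edgeR adjusted p = 0.0746). The muscarinic receptor Chrm3 was lower than in all 3 classes, and was unread in 72 of 79 Fasn-R1812W and 121 of 127 WT granule nuclei, with 159 and 125 CPM in CA1-gene nuclei.

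Vesicle genes were mixed too, with 5 of 31 higher and 4 lower than in CA1-gene nuclei and 5 higher and 6 lower than in GABA-gene nuclei. Complexin 2 (Cplx2), a regulator of the release machinery, and the vesicular zinc transporter Slc30a3, which loads mossy fibre vesicles with zinc, were above all 3 classes. Slc30a3 had 295 and 223 CPM in granule nuclei against 95.9 and 57.6 CPM in CA1-gene and 33.6 and 62.4 CPM in GABA-gene nuclei. The vesicle protein Sv2c had 131 and 104 CPM in granule and 2.51 and 0.541 CPM in CA1-gene nuclei (log2 fold change 6.30), while its relative Sv2b went the other way with 28.0 and 4.11 CPM against 539 and 480 CPM (-5.28). The 2 forms thus ran opposite to each other between granule and CA1-gene nuclei, in both libraries. Rab3c, a vesicle GTPase, was lower than in every other class (-3.15, -3.97 and -2.34).

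Transcription factors of neurogenesis had 10 of 21 genes above and 1 below GABA-gene nuclei (median 1.72), and 1 above and 2 below CA1-gene nuclei (0.45). Neurod2, a bHLH factor of excitatory neurons, had 149 and 154 CPM in granule and 2.09 and 9.54 CPM in GABA-gene nuclei. Neurod6 had 78.8 and 23.2 CPM in granule and 385 and 305 CPM in CA1-gene nuclei, and fell by 2.88. Of 30 axon guidance genes, 3 were higher and 2 lower than in CA1-gene nuclei, and 7 higher and 4 lower than in GABA-gene nuclei. The transmembrane semaphorin Sema5a, which limits synapse number on granule neurons in the mouse, had 390 and 630 CPM in granule and 0.740 and 3.35 CPM in CA1-gene nuclei (log2 fold change 8.10, edgeR adjusted p = 2.56e-05). The ephrin receptor Epha5 was lower than in every other class, by 1.26 to 1.34, at 168 and 248 CPM in granule nuclei.

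Among 25 activity-response genes, 3 were lower than in CA1-gene nuclei and 0 higher in edgeR (1 higher at an unadjusted p under 0.05 and 1 in DESeq2), with a median log2 fold change of -0.84. Against GABA-gene nuclei the list went the other way, with 3 higher and 1 lower (median 0.71). The 3 below CA1-gene nuclei included the sorting receptor Sorcs3, with 10.4 and 14.4 CPM in granule and 224 and 265 CPM in CA1-gene nuclei, and the scaffold Homer1, with 58.8 and 92.9 against 201 and 193 CPM. The neuropeptide cholecystokinin (Cck) was lower by 1.97, while prodynorphin (Pdyn), the opioid precursor of granule neurons, was read at 62.9 and 28.2 CPM in granule nuclei and not at all in the remaining nuclei. Lipid and energy genes gave few calls. Against CA1-gene nuclei 0 of 19 de novo lipogenesis, 22 fatty acid oxidation, 22 cholesterol synthesis and 19 glycolysis genes passed in edgeR. Of all 16332 genes tested, 418 passed (2.56%), so 0 calls do not set lists of this size apart from other genes. At an unadjusted p under 0.05 these lists had 3, 1, 3 and 5 genes. In DESeq2 they had 1, 2, 1 and 2, beside 1299 of all 16332 genes. Against GABA-gene nuclei Elovl6, which lengthens palmitate, fell by 2.17, and the glycolytic enzymes Aldoa and Pfkp rose by 0.68 and fell by 1.46. Cds1, which makes the CDP-diacylglycerol used for phosphoinositides, fell against all 3 classes (-2.21, -1.51 and -2.06).

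Markers of other cells were also read in granule nuclei, and not all were low. Of 14 interneuron genes, 11 were lower than in GABA-gene nuclei, while 5 were higher and 2 lower than in CA1-gene nuclei (median log2 fold change 1.14). The list summed to 470 and 427 CPM in granule, 347 and 478 CPM in CA1-gene and 13198 and 10246 CPM in GABA-gene nuclei. Adarb2, an RNA-binding protein of the adenosine deaminase family on this list, was at 205 and 256 CPM and on in 35 of 79 and 68 of 127 granule nuclei. Somatostatin (Sst) gave 33.1 and 36.7 CPM in granule nuclei and 4870 and 4204 CPM in GABA-gene nuclei. Of the mossy cell genes, Drd2 and Gal had no read in granule nuclei. The other kept nuclei held at most 1.68 CPM of Drd2 and 0 CPM of Gal. The list summed to 147 and 133 CPM in granule, 1124 and 793 CPM in CA1-gene, 226 and 114 CPM in GABA-gene and 864 and 555 CPM in remaining nuclei. CA3 genes summed to 484 and 587 CPM in granule, 759 and 502 CPM in CA1-gene, 542 and 435 CPM in GABA-gene and 1141 and 831 CPM in remaining nuclei. Of 11 tested, 0 were higher and 1 lower than in the remaining nuclei (median log2 fold change -1.42). Against CA1-gene nuclei 1 was higher and 1 lower, and the same held against GABA-gene nuclei. St18 was at 71.5 and 130 CPM in granule nuclei, above the 16.2 and 12.7 CPM of the other kept nuclei. Cpne4 was at 105 and 115 CPM, above 49.9 and 59.8 CPM. Other CA3 genes lay below the other kept nuclei, such as Chgb (131 and 121 against 300 and 248 CPM) and Ociad2 (42.9 and 48.7 against 235 and 122 CPM). Astrocyte genes summed to 992 and 930 CPM in granule, 390 and 508 CPM in CA1-gene, 591 and 794 CPM in GABA-gene and 980 and 4303 CPM in remaining nuclei. Of the granule sums 275 and 303 CPM were the bicarbonate transporter Slc4a4, which was called higher than in all 3 classes and was on in 47 of 79 and 84 of 127 granule nuclei. The part of free RNA and of doublets in such reads was not tested.

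Genotype was compared within granule nuclei as a difference between 1 Fasn-R1812W and 1 WT library. The ratio of pooled CPM, with 1 CPM added to each, was at least 2-fold for 2166 of 10371 genes (20.9%), 1077 of them higher (10.4%) and 1089 lower (10.5%) in Fasn-R1812W. The median log2 ratio was 0.0136, with 5264 of the 10371 genes above 0 and 5107 below. Genes entered with at least 10 CPM and a read in at least 10% of members in either library, so a gene low in one library entered through the other. Direction was checked in 13 other ways of computing the ratio from the same 2 libraries, which is no replicate check.

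Fasn itself (chromosome 11, 120805846 to 120824547, minus strand) was at 40.4 CPM in Fasn-R1812W and 37.2 CPM in WT granule nuclei, a log2 ratio of 0.12 that kept its sign in 7 of the 13 alternatives (-1.48 to 0.22). It was read in 14 of 79 Fasn-R1812W and 31 of 127 WT nuclei and was on in 6 and 19. One nucleus held 71.8% of the Fasn-R1812W reads. The counts hold no bases, so the allele could not be seen. Among the 14 of 20 de novo lipogenesis genes that entered, 6 were higher and 8 lower in Fasn-R1812W (median -0.14). Acly, which makes the acetyl-CoA that Fasn uses, was at 26.3 CPM in Fasn-R1812W and 68.6 CPM in WT and was on in 6 and 31 nuclei. Elovl6 was at 14.8 and 37.8 CPM and was on in 6 and 21. The desaturase Scd2 was the other way round, with 283 CPM in Fasn-R1812W and 167 CPM in WT, but a single nucleus held 40.0% of the Fasn-R1812W reads and its median over nuclei was 2.11 and 8.29 CPM. Cholesterol synthesis genes (16 entered, median 0.03) and phospholipid and sphingolipid genes (29 entered, median 0.0078) were split near evenly. Fatty acid oxidation genes (14 entered) had 8 higher and 6 lower, with a median of 0.26.

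GABA receptor genes lay mostly below WT. Of 15, 12 entered, 11 of which were lower and 1 higher in Fasn-R1812W granule nuclei, with a median log2 ratio of -0.36 beside 0.0136 for all genes and none 2-fold apart. The median stayed below 0 in each of the 13 alternatives (-1.005 to -0.25). The alpha 2 subunit Gabra2 ranged from 0 to 1589 CPM over Fasn-R1812W nuclei (median 330) and from 2.14 to 2319 CPM over WT nuclei (median 427). The ranges overlapped over most of their length. Pooled, Gabra2 was at 370.5 CPM in Fasn-R1812W and 506 CPM in WT (log2 ratio -0.45), Gabra5 at 113 and 175 CPM (-0.63) and Gabrb2 at 58.7 and 103 CPM (-0.80). Gabrd was the 1 above, at 108 and 82.6 CPM. Of these single genes, Gabra5 kept its sign in all 13 alternatives and Gabra2 in 12. Gabrb2 (-1.06 to 0.30) and Gabrd (-1.33 to 0.75) did so in 11. The summed level of all 15 listed genes in a nucleus had a median of 3324 CPM (866 to 6119) in Fasn-R1812W and 3781 CPM (1103 to 9090) in WT. The same 12 genes had a median ratio of -0.24 in CA1-gene, 0.39 in GABA-gene and -0.39 in remaining nuclei, so lower values were seen in CA1-gene and remaining nuclei as well.

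Glycolysis genes lay above WT somewhat more often than below it. All 19 entered, with 12 higher and 7 lower in Fasn-R1812W, beside 5264 higher and 5107 lower of all 10371 genes. The median was 0.22, above 0 in each of the 13 alternatives (0.04 to 0.36). Pyruvate kinase (Pkm, chromosome 9, 59656368 to 59679375), which makes pyruvate and ATP, ranged from 0 to 1784 CPM in Fasn-R1812W (median 424) and from 0 to 1662 CPM in WT nuclei (median 243). The ranges overlapped, and the pooled level was 554 CPM in Fasn-R1812W and 266 CPM in WT (log2 ratio 1.06). Aldolase A (Aldoa) was at 1408 and 980 CPM and neuronal enolase (Eno2) at 408 and 268 CPM, while the enolase Eno1 and the glucose transporter Slc2a3 were lower, at 106 and 137 CPM in Fasn-R1812W against 163 and 208 CPM in WT. Aldoa overlaps Fam57b on the opposite strand, and a predicted gene overlaps Pkm. The same list had a median of -0.05 in CA1-gene (8 higher and 11 lower), 0.24 in GABA-gene (14 and 5) and 0.07 in remaining nuclei (12 and 7). Pkm was at 388 CPM in Fasn-R1812W and 440 CPM in WT in CA1-gene nuclei, at 533 and 421 CPM in GABA-gene nuclei and at 483 and 359 CPM in remaining nuclei.

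**Figure D3:**
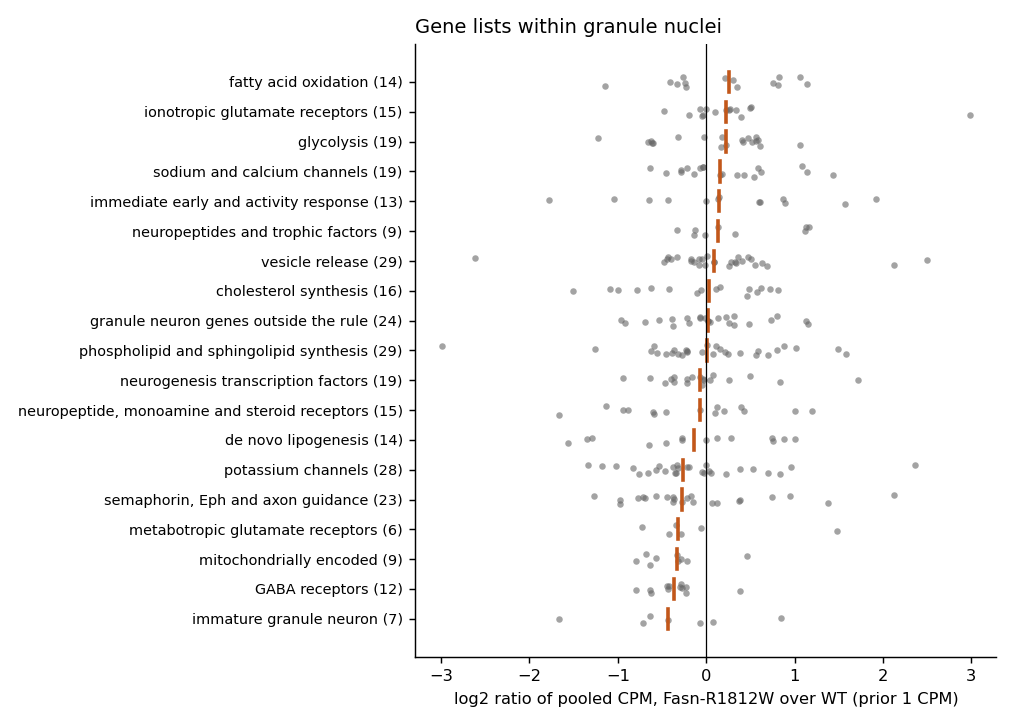
Log2 ratio of pooled CPM, Fasn-R1812W over WT, in granule nuclei (x axis) for the genes of 19 lists that entered the comparison (y axis); each point is a gene and each bar the median of its list. Medians lie between -0.43 for immature granule neuron genes and 0.26 for fatty acid oxidation genes, within the spread of the single genes.

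The median kept its sign in all 13 alternatives for GABA receptor, glycolysis, axon guidance, mitochondrially encoded and hormone or transmitter receptor genes, and changed sign in at least 1 alternative for the other lists plotted.

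Potassium channel genes had 10 higher and 18 lower of 28 that entered (median -0.27, negative in 12 of 13 alternatives). Kcnj3, the inward rectifier that G-protein-coupled GABA and adenosine receptors open (chromosome 2, 55435970 to 55598145), ranged from 0 to 1117 CPM in Fasn-R1812W (median 50.04, no read in 31 of 79) and from 0 to 1738 CPM in WT nuclei (median 302, no read in 18 of 127). Its pooled level was 147 and 374 CPM in Fasn-R1812W and WT (log2 ratio -1.34), and it was lower in Fasn-R1812W in the other 3 classes too, by 0.23 to 0.56. The A-type channel Kcnd3 was at 67.4 and 154 CPM. Higher in Fasn-R1812W was Kcnip2, a modulator of A-type channels, at 288 CPM against 161 CPM in WT. Of 19 sodium and calcium channel genes, 10 were higher and 9 lower (median 0.15); the P/Q-type calcium channel Cacna1a was at 227 and 106 CPM and on in 48 of 79 and 59 of 127 nuclei.

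Axon guidance genes had 8 higher and 15 lower of 23 (median -0.27, negative in all 13 alternatives, against -0.01 to 0.05 in the other 3 classes; the difference between classes was not tested). Sema5a was at 390 CPM in Fasn-R1812W and 630 CPM in WT and Epha7 at 598 and 778 CPM, while Slit3, a ligand of Robo receptors, was higher at 258 and 154 CPM. The ephrin receptor Ephb2 was at 36.5 and 7.60 CPM with a read in 20.3% and 13.4% of nuclei, and its ratio of 2.12 kept its sign in 11 of 13 alternatives (-0.57 to 2.38). Ionotropic glutamate receptors had 9 higher and 6 lower of 15 (median 0.23). Gria2 stood at 4005 CPM in Fasn-R1812W and 4126 CPM in WT, with nuclei from 1093 to 8801 CPM and from 1504 to 8631 CPM, so this AMPA receptor gene hardly differed. The ratio of the NMDA receptor subunit Grin3a, 2.98 from 112 CPM in Fasn-R1812W and 13.3 CPM in WT, rested on few nuclei, as 1 nucleus held 40.7% of the Fasn-R1812W and 1 held 44.6% of the WT reads. Metabotropic glutamate receptors had 1 higher and 5 lower of 6 (-0.31). Vesicle release genes had 16 higher and 13 lower of 29 (0.09).

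Granule neuron genes outside the rule did not go one way. All 24 entered, with 13 higher and 11 lower in Fasn-R1812W, a median of 0.02 and a summed level per nucleus of 613 to 18643 CPM (median 9731) in Fasn-R1812W and 3512 to 20796 CPM (median 10420) in WT. Il1rap (chromosome 16, 26581704 to 26730117) ranged from 0 to 2573 CPM in Fasn-R1812W (median 451) and from 0 to 3647 CPM in WT nuclei (median 732). Pooled it stood at 450 and 883 CPM (log2 ratio -0.97), and Lrrtm4 at 193 and 367 CPM (-0.92). Calb1 was higher, at 506 CPM in Fasn-R1812W and 360 CPM in WT, with no read in 8 of 79 and 27 of 127 nuclei. Of the rule genes, Dsp had the lowest ratio, -1.14, followed by Stxbp6 with -0.92, C1ql2 with -0.64, Prox1 with -0.40, Dock10 with -0.31, Trpc6 with -0.26 and C1ql3 with -0.06, while Glis3 and Tdo2 lay above 0 with 0.36 and 0.90; with the rule requiring them, these ratios are a description. Immature granule neuron genes, of which 7 of 14 entered, had 2 higher and 5 lower (median -0.43, negative in 12 of 13 alternatives and in the other 3 classes). Doublecortin (Dcx), the microtubule protein of young neurons, was at 24.6 and 41.1 CPM and on in 4 of 79 and 14 of 127 nuclei, and Eomes, Neurog2 and Neurod4, factors of neuronal precursors, had no read in granule nuclei of either library. Among transcription factors Zbtb18, a repressor of neuronal differentiation genes, was at 157 CPM in Fasn-R1812W and 302 CPM in WT, and Klf9, a hormone-induced factor of late granule maturation, at 170 and 95.2 CPM.

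Receptors of hormones and transmitters had 7 higher and 8 lower of 15 (median -0.07), with 2 at least 2-fold higher and 2 at least 2-fold lower. Among the lower ones, the insulin receptor Insr was at 51.4 CPM in Fasn-R1812W and 114 CPM in WT (log2 ratio -1.13). Insr kept its sign in 12 of 13 alternatives (-4.61 to 0.12). Also lower were the mineralocorticoid receptor Nr3c2 at 66.5 and 129 CPM (-0.94), and the muscarinic receptor Chrm1 at 88.1 and 163 CPM (-0.88). The circadian and activity-induced repressor Per1 (chromosome 11, 69095217 to 69109960) had a median of 0 in both libraries and a highest nucleus of 1259 CPM in Fasn-R1812W and 922 CPM in WT. It was unread in 46 of 79 Fasn-R1812W and 87 of 127 WT nuclei, and its pooled level was 140 and 36.3 CPM (log2 ratio 1.92). Per1 was higher in Fasn-R1812W in every class, with 88.8 against 39.9 CPM in CA1-gene, 147 against 28.7 CPM in GABA-gene and 115 against 50.7 CPM in remaining nuclei. The labels give no time of day for either library. Other activity genes lay on either side: Nr4a2 was at 23.0 and 48.4 CPM and Ptgs2 at 6.77 and 25.7 CPM, and the 13 that entered had 8 higher and 5 lower (median 0.14).

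**Figure D4:**
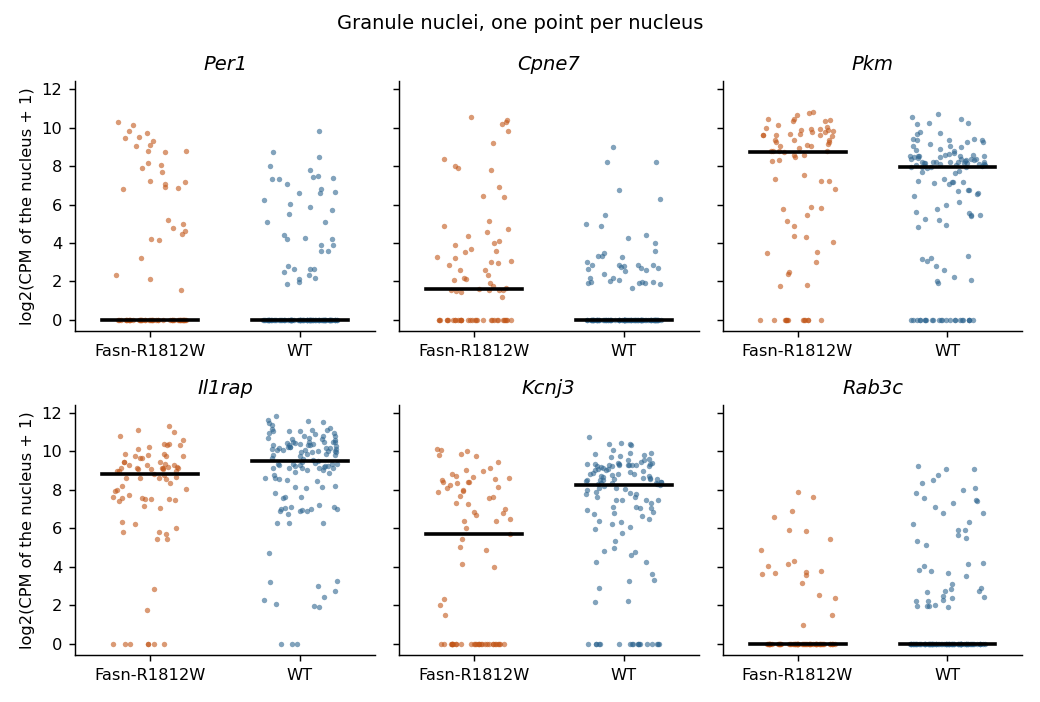
Level of 6 genes in single granule nuclei, as log2(CPM + 1) (y axis), for Fasn-R1812W (left of each pair) and WT (right); each point is a nucleus and the black line the median. The ranges overlap for all 6, and the medians stand furthest apart for Kcnj3, at 50.04 and 302 CPM.

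The 12 genes furthest above WT by the naming rule were led by Cpne7, a calcium-dependent phospholipid-binding copine (chromosome 8, 123117374 to 123135182). It ranged from 0 to 1477 CPM over Fasn-R1812W nuclei (median 2.09) and from 0 to 504 CPM over WT nuclei (median 0), and was read in 47 of 79 and 41 of 127. Pooled it stood at 84.4 CPM (80.5 to 88.4) in Fasn-R1812W and 10.3 CPM (9.23 to 11.6) in WT, a log2 ratio of 2.91 that lay between 2.17 and 3.91 in the alternatives. Cpne7, which a predicted gene overlaps on the same strand, was at 998 and 836 CPM in CA1-gene and 891 and 417 CPM in remaining nuclei, above its level in granule nuclei. The 8 genes of the CA1 rule together held 72.6 and 71.0 CPM in granule nuclei of Fasn-R1812W and WT, and the part of transcripts from other nuclei in the Cpne7 level was not tested.

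Srsf9, a splicing factor, was read in 59 of 79 Fasn-R1812W and 92 of 127 WT nuclei, at 273 CPM (266 to 280) in Fasn-R1812W and 85.4 CPM (82.2 to 88.8) in WT (log2 ratio 1.66), and it was higher in Fasn-R1812W in the other 3 classes by 0.56 to 0.92. Rusc1, an adaptor of vesicle transport that overlaps a predicted gene, was at 175 and 52.8 CPM. Copb2, a coat protein of Golgi vesicles, was at 94.8 and 28.4 CPM, the mitochondrial ribosomal protein gene Mrpl21 at 94.1 and 23.0 CPM, and the actin-capping tropomodulin Tmod3 at 93.2 and 24.8 CPM. The other 6 were Abhd8, Nolc1, Baiap3, Nt5c3b, Smyd2 and Frmd5, with log2 ratios of 1.77 (Frmd5) and more. Mrpl21 and Baiap3 overlap Ighmbp2 and Tsr3. Apart from Srsf9, Rusc1 and Cpne7, each was read in 26.6% to 38.0% of Fasn-R1812W granule nuclei.

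The 12 furthest below WT included Keap1, the adaptor that targets the oxidative stress factor Nrf2 for degradation, at 8.84 CPM (7.61 to 10.2) in Fasn-R1812W and 63.6 CPM (60.8 to 66.5) in WT (log2 ratio -2.71). It was read in 16 of 79 Fasn-R1812W and 45 of 127 WT nuclei, with a highest nucleus of 320 and 1053 CPM. Rab3c was at 6.25 and 43.5 CPM (-2.62) and was read in 21 and 48 nuclei. Bmyc, a relative of the Myc factors, was at 6.01 and 52.0 CPM (-2.92), the chromatin reader Jade2 at 2.74 and 25.6 CPM (-2.83), and Ube2v2, a ubiquitin-conjugating variant, at 6.49 and 39.7 CPM (-2.44). H2-DMa, Garem1, Gpn3, Pcdhb16, Rpap3, Zfp949 and Mrpl58 made up the set, with ratios of -2.60 to -2.33. H2-DMa overlaps Brd2, Gpn3 overlaps Fam216a, and Pcdhb16 belongs to a family of close copies, so reads of these may be shared. All 24 named genes kept their direction in the 13 alternatives. The naming rule already required the same direction in pooled, mean and thinned values, so this is no separate check. In the other classes, 8 of the 12 higher genes had the same direction in CA1-gene, 9 in GABA-gene and 9 in remaining nuclei, against 7, 5 and 6 of the 12 lower ones.

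**Figure D5:**
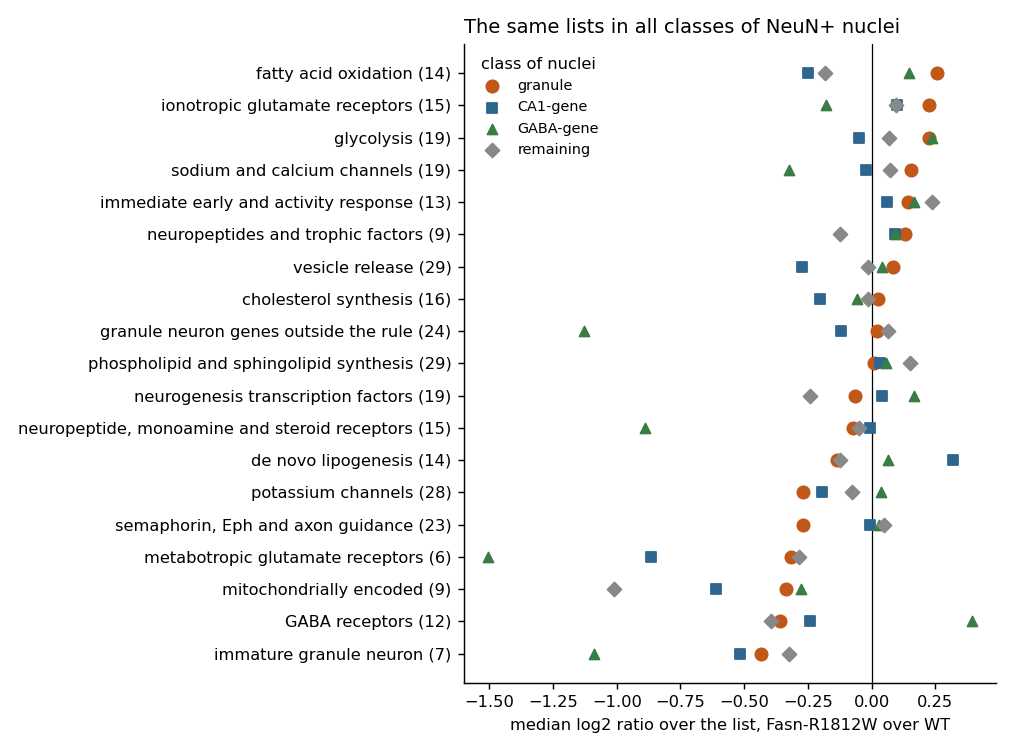
Median log2 ratio of pooled CPM, Fasn-R1812W over WT, of each list (y axis, with the number of genes that entered in granule nuclei) in granule, CA1-gene, GABA-gene and remaining nuclei (symbols). GABA receptor genes lie at -0.36 in granule and 0.39 in GABA-gene nuclei, and axon guidance genes at -0.27 in granule nuclei and within 0.05 of 0 in the other 3 classes.

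Pooled levels of some glial transcripts differed between the libraries within granule nuclei. Oligodendrocyte genes summed to 1032 CPM in Fasn-R1812W and 283 CPM in WT, with 20406 CPM in the highest Fasn-R1812W nucleus and 7589 CPM in the highest WT nucleus. The median nucleus held 37.5 CPM in Fasn-R1812W and 41.0 CPM in WT, and the upper quartile was 196 and 408 CPM. The higher pooled sum in Fasn-R1812W thus rested on few nuclei. At least 1 oligodendrocyte gene was on in 32 of 79 Fasn-R1812W and 59 of 127 WT nuclei. Of the members, 5 of 79 Fasn-R1812W and 2 of 127 WT nuclei had 3 or more oligodendrocyte genes on. Genes of oligodendrocyte precursors summed to 124 and 22.9 CPM, and Pdgfra was read in 2 Fasn-R1812W nuclei and no WT nucleus. Astrocyte genes summed to 992 and 930 CPM and microglia genes to 98.0 and 56.2 CPM, with Tmem119 at 0 in both. Ttr, a transcript of the choroid plexus, was at 175 CPM in Fasn-R1812W and 593 CPM in WT, where a single nucleus had 60826 CPM and the median nucleus 232 CPM, against 2.37 CPM in the median Fasn-R1812W nucleus. The part of these transcripts in the genotype ratios was not tested gene by gene. Without every member that had 3 or more genes of a glial or vascular list on, 50 Fasn-R1812W and 90 WT nuclei were left. Of 10341 genes, 3113 were then at least 2-fold apart (30.1%, against 20.9% with all members). The medians of the GABA receptor, glycolysis and axon guidance lists kept their signs. Mitochondrially encoded genes, whose RNA is made outside the nucleus, had 1 higher and 8 lower of 9 (median -0.34), and took 0.312% of the reads of Fasn-R1812W and 0.349% of those of WT granule nuclei.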

How the data were processed

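The deposited values are raw read counts, which the authors left unnormalized, for 25567 genes in 384 wells per library; 382 nuclei per library were stated. Trimming with Trimmomatic 0.36 and alignment with STAR 2.5.3a to GRCm38.p5 come from the submitters' processing notes, and neither the counting program nor its annotation or strand handling is given in the sources used here. Symbols and positions of 25472 genes were taken from GENCODE M21.

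Members, classes and gene lists were chosen with earlier results of these data known. For class comparisons, counts were summed to 8 sums (4 classes in 2 libraries) and tested with edgeR 4.0.16 (R 4.3.3) with the library as a block, TMM scaling and an adjusted p threshold of 0.05. BCV was 0.76 with 3 residual degrees of freedom. With the library as a block, p-values rest on how class differences varied between these 2 libraries, with 1 estimate of spread for all 4 classes. DESeq2 1.42.0 was an alternative. For genotype, with 1 library per group, no test was possible, and the log2 ratio of pooled CPM with a prior of 1 CPM was given with exact Poisson intervals. Shares have Clopper-Pearson intervals. Both steps were also run on data simulated from these libraries with known changes, and the outcome is not reported here. The other settings tried were thinning to 50000 reads, 2 or 4 rule genes on and stricter well filters (2000 genes and 100000 reads). A prior of 0.1 CPM, other thresholds for genes, mean CPM per nucleus and TMM scaling were also tried. A further setting dropped the 5% of kept nuclei of a library with most genes read. It left 78 of 79 Fasn-R1812W and 126 of 127 WT members, so it hardly changed the member set. No doublet caller was run. Leaving out members with 3 or more glial genes on, members outside 100000 to 400000 reads, or members with fewer than 5 rule genes on was chosen after seeing the data.

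Class genes named are the 12 in each direction with an adjusted p under 0.05 and the same sign against CA1-gene and GABA-gene nuclei and at least 20 CPM in the higher class in both libraries, ranked by the smaller fold change. Genotype genes named are the 12 in each direction with the largest ratio among those with 20 CPM, a read in 20% of nuclei and no nucleus holding over 20% of reads in the higher library, and the same direction in pooled, mean and thinned values. Predicted, mitochondrially encoded and X- or Y-linked genes were left out of both. All rule genes, Fasn and members of the lists are named as well. The EdU+ libraries entered no test and are described apart, and embryonic nuclei were not analysed here. Python 3.11.15, numpy 2.4.6, pandas 2.3.3, scipy 1.17.1 and matplotlib 3.10.9 were used.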

Additional observations from a re-analysis of the deposited data

Results flagged for a closer look

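The rule was also met in libraries that entered no test. In the EdU+ pair, sorted for nuclei that had made DNA in the days before isolation, 10 of 348 kept Fasn-R1812W wells (2.87%, interval 1.39 to 5.22) and 2 of 167 kept WT wells (1.2%, interval 0.145 to 4.26) had at least 3 granule rule genes on. The 2 intervals overlap. At most 3 rule genes were on in the Fasn-R1812W wells and at most 4 in the WT wells, while NeuN+ granule nuclei had medians of 4 in Fasn-R1812W and 5 in WT.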

How the results depend on the processing

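DESeq2 called more genes than edgeR against CA1-gene (1299), GABA-gene (2426) and remaining nuclei (1115), and 416 of 418, 1070 of 1075 and 351 of 354 edgeR calls were among them. Without the library as a block, calls against the remaining nuclei came to 216 (36 higher and 180 lower), 16.7% of them higher, against 25.1% with the block; with at least 4 rule genes on the higher share was 14.5%. Counts against CA1-gene and GABA-gene nuclei stayed within 1.5 times under the other settings run. In either library alone no test is possible. All 418, 1075 and 354 called genes kept their sign there. The calls came from these same 2 libraries, so this agreement is no separate check. Of 48 fold changes of the named class genes, 0 to 5 lost their call in a setting, with 5 lost after thinning. In a single library, whose ratio carries a prior of 1 CPM, 24 of the 48 moved by 1 or more on the log2 scale without the Fasn-R1812W library and 30 without the WT library; Npnt over GABA-gene nuclei came to 2.83 and 6.24. Genes at least 2-fold apart between genotypes numbered 4951 of 14891 (33.2%) with a gene filter of 1 CPM, which lets in low genes. They numbered 5082 of 9929 (51.2%) without members with 2 or more glial or vascular genes on, which left 19 Fasn-R1812W and 33 WT nuclei. In the other settings they numbered 1600 to 3146 (15.4% to 30.1%), against 2166 (20.9%) in the comparison above. The 24 class genes and 24 genotype genes named kept their direction in every setting run, which their selection from these same data made likely. Of 25 gene lists with at least 3 genes entered, 5 kept the sign of their genotype median in all settings and 20 did not. No paired analysis was possible because each group has 1 library. A gene with no read in granule nuclei has an upper limit of 0.144 CPM in Fasn-R1812W and 0.0995 CPM in WT, the level of 3 reads. The p-values rest on 2 libraries that also differ in genotype, and the genotype ratios on 1 library each.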

Other observations

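Wells of the EdU+ libraries that met the granule rule differed from NeuN+ granule nuclei in other genes. The 10 Fasn-R1812W wells held 770 CPM of Prox1 and the 2 WT wells 1036 CPM, against 401 and 529 CPM in NeuN+ granule nuclei of these genotypes. Pdgfra and Vcan, genes of oligodendrocyte precursors, were at 2721 and 3467 CPM in the Fasn-R1812W EdU+ wells and at 378 and 390 CPM in the WT ones, and Pdgfra was on in 7 of 10 and 1 of 2. The NeuN+ granule nuclei held 34.2 and 0 CPM of Pdgfra. Rbfox3, which encodes the NeuN protein, was at 17.1 and 0 CPM in the EdU+ wells and at 231 and 154 CPM in NeuN+ granule nuclei. The vesicle release gene Syt1 was at 57.3 and 0 CPM in the EdU+ wells, against 928 and 1256.5 CPM. Snap25, from the same list, was at 568 and 1047 CPM and on in 5 of 10 and 2 of 2 EdU+ wells, against 1310 and 1388 CPM. Calb1 was at 23.4 and 169 CPM in the EdU+ wells, against 506 and 360 CPM. Dcx was at 17.1 and 0 CPM. Mki67, a protein of dividing cells, was at 242 and 5.82 CPM in the EdU+ wells.

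Mki67 was also read in NeuN+ granule nuclei, at 75.8 CPM in Fasn-R1812W and 31.1 CPM in WT, and was on in 18 of 79 and 20 of 127. Top2a, a topoisomerase that dividing cells also need, was at 0.0961 and 0.265 CPM in the same nuclei and on in none of them. Sox11, a factor of young neurons, was at 123 and 117 CPM and on in 27 and 34 nuclei, while Dcx was on in 4 and 14.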
